A study of Mus musculus with 12 samples.

Results

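The distal common Mist1 regions are stretches of the mouse genome that carried a Mist1 peak in both of 2 Bio-ChIP-seq experiments and that lie outside protein-coding genes and their promoters. Peaks that overlapped between the experiments by 1 bp or more were joined, and the resulting regions under 3000 bp wide were kept as distal if they overlapped neither a protein-coding gene of the GENCODE M1 annotation nor the 1 kb on either side of a protein-coding transcription start site (TSS). The experiments contributed 29413 and 30247 peaks, which gave 23806 common regions. The study reports more peaks for each experiment. The counts given here refer to the lists used, which may not hold every peak called in the study. Of the 23086 regions under the width limit, 6800 (29.5%) were distal, whereas 8398 lay in gene bodies and 7888 at a TSS. The rule used positions alone, so that neither sequence nor expression chose the members. Many immunoglobulin and T cell receptor gene segments are not classed as protein-coding in this annotation, and these parts of their loci belong to the distal sequence. Some segments, such as *Iglc2* and *Iglc3*, are classed as protein-coding and were treated as genes.

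The peaks were obtained with plasmablasts (PBs) of C57BL/6 mice with the genotype Bhlha15 fl/fl R26 BirA/BirA. Their floxed *Bhlha15* alleles, which encode Mist1, carry a biotin acceptor sequence, and the BirA ligase expressed from the *Rosa26* locus attaches biotin to it, so that streptavidin precipitates Mist1 with its DNA. Splenic B cells of these mice were stimulated with lipopolysaccharide (LPS) for 4 days, and CD138+ PBs were enriched. RNA-seq libraries, 2 for each group, came from splenic plasma cells (PCs) on day 7 after NP-KLH immunization and from PBs on day 8 of the iGB culture, in which B cells grow on feeder cells that present CD40 ligand and BAFF. The control PCs are labelled wildtype, and the methods of the study describe them as Bhlha15 fl/fl. The Mist1-deficient PCs were Cd23-Cre Bhlha15 fl/fl, in which Cre is active from the immature B cell stage. The iGB-derived PBs were Bhlha15 CreER/CreER, which lack Mist1 because CreER replaces it, Xbp1 fl/fl, which serve as their control and carry a different modified locus, and Cd23-Cre Xbp1 fl/fl, which entered only the common estimate of the spread. The peak lists give positions without heights or read counts, so that the depth of each experiment is unknown.

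Mist1 belongs to the basic helix-loop-helix (bHLH) transcription factors, which bind DNA as dimers at the E-box CANNTG. In the B lineage, Mist1 appears in PBs and PCs, where the E proteins E2A (*Tcf3*) and E2-2 (*Tcf4*), also of the bHLH family, are active as well. Distal sequence harbors enhancers, which act on promoters over long distances and are typically bound by several factors close to each other.

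The central 200 bp of 8 distal regions illustrate these sequences. They are written 5′ to 3′ on the plus strand of the NCBIM37 (mm9) assembly, in lower case, with each E-box in capitals. The first 4 belong to the distal regions nearest to the TSS of *Prdm1*, which encodes the PC regulator Blimp1, of *Irf4*, of *Xbp1* and of *Myc*.
Prdm1, chr10:44257459-44257658: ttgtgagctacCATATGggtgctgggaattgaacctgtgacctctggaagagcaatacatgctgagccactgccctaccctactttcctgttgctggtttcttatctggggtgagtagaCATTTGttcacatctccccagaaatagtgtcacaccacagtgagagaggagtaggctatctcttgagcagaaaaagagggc
Irf4, chr13:30829325-30829524: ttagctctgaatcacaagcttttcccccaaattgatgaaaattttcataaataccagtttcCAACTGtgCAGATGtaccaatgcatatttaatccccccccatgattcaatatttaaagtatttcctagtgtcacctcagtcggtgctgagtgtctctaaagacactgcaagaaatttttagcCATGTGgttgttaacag
Xbp1, chr11:5412200-5412399: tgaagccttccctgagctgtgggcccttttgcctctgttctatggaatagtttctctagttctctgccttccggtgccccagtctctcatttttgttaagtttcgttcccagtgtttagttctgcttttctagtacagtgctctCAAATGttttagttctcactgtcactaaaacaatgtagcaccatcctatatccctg
Myc, chr15:61800249-61800448: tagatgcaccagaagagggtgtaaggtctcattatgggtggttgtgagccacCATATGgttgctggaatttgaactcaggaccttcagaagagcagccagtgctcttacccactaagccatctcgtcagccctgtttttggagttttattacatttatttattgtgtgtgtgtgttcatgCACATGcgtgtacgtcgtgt

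The fifth window lies at a kappa variable gene segment, where capitals also mark the octamer, here as ATTTGCAT, the reverse complement of ATGCAAAT. This octamer, which is bound by Oct1 and Oct2, is a hallmark of the promoters of immunoglobulin variable genes. The sixth and seventh windows belong to the distal regions nearest to *Rab3d* and *Asap3*, the genes with the largest changes in Mist1-deficient PCs among those close to a distal region. The last window, near *Tulp1*, repeats CAGCTG 16 times.
Igkv2-137, chr6:67505384-67505583: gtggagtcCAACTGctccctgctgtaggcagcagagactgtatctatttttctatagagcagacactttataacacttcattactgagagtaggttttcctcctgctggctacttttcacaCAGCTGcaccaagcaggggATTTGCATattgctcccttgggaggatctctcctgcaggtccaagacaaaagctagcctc
Rab3d, chr9:21675477-21675676: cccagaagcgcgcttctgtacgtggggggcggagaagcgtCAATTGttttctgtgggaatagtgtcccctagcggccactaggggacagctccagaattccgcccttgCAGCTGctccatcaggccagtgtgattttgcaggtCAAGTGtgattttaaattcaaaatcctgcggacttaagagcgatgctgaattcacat
Asap3, chr4:135758471-135758670: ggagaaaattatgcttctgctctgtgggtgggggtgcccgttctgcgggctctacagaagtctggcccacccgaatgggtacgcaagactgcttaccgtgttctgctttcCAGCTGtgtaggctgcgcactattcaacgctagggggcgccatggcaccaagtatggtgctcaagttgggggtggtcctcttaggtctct
Tulp1, chr17:28525591-28525790: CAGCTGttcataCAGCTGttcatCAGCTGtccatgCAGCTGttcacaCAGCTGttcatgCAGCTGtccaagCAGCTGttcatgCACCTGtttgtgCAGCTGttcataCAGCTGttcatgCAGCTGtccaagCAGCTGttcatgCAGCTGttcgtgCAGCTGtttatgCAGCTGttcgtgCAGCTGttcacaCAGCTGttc

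By the rule, all distal regions are under 3000 bp wide and hold peaks of both experiments. The values on width and overlap describe them within these limits. Their widths ranged from 273 to 2991 bp with a median of 886 bp (659 to 1234 bp for the middle 50%), and 126 further distal regions, the narrowest of 3006 bp, exceeded the width limit. Most members (6556, 96.4%) consisted of 1 peak in each experiment. Over all distal regions, the bases covered by both experiments made up a median of 79.8% of the region. The centres of both experiments were a median of 58.5 bp apart. Of the distal peaks in the first experiment, 81.9% (95% interval 81.0 to 82.7%) were common, compared with 89.98% (89.4 to 90.6%) of the peaks at TSSs. In the second experiment, these shares were 77.3% (76.5 to 78.2%) and 87.6% (87.0 to 88.3%). Distal peaks found in only 1 experiment were narrower, with median widths of 442 and 477 bp against 755 and 807 bp for the common ones.

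The distal regions accumulated toward genes, although the rule removed the genes and promoters themselves. The median distance to the nearest protein-coding TSS was 23363 bp, compared with 98665 bp for distal sequence sampled at every 2000 bp. The density was 11.2 regions per Mb of distal sequence at 1 to 5 kb from a TSS, 9.98 at 5 to 10 kb, 7.77 at 10 to 50 kb, 4.61 at 50 to 100 kb, 1.67 at 100 to 500 kb and 0.293 beyond 500 kb. Of all 6800 regions, 4417 (64.96%; 63.8 to 66.1%) lay upstream of the nearest TSS, where 58.2% of the distal sequence is found. These overall shares are not matched for distance, as the upstream share of the sequence itself falls from 80.7% at 1 to 5 kb to 50.9% beyond 500 kb. Within classes of distance up to 500 kb, both shares lay closer together. At 10 to 50 kb, the class with most regions (3009), 63.5% (61.8 to 65.2%) of regions and 63.1% of the sequence were upstream. At 50 to 100 kb, the shares were 53.7% (50.6 to 56.8%) of regions and 57.0% of the sequence. At 1 to 5 kb, 84.8% (82.3 to 87.1%) of regions and 80.7% of the sequence were upstream, as intragenic sequence downstream of the TSS is excluded by the rule. Only 569 regions (8.37%) overlapped a non-coding gene, 307 of them a lincRNA gene, a further 28 overlapped an immunoglobulin or T cell receptor gene segment, and 296 (4.35%) were within 1 kb of a non-coding TSS. All intervals of shares are exact Clopper-Pearson intervals at 95%, which cover counting error only.

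**Figure D1:**
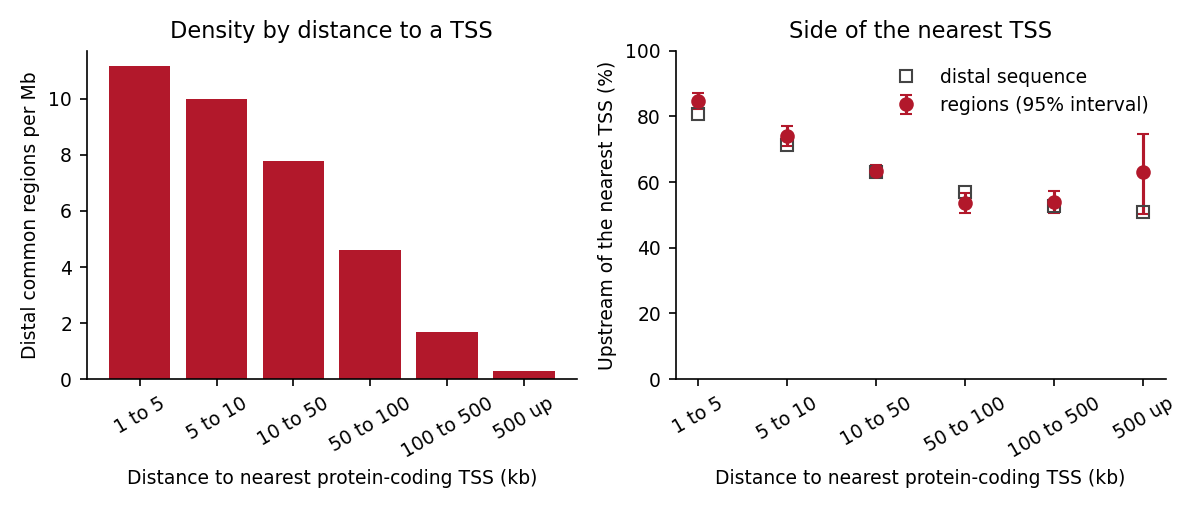
The bars on the left plot the number of distal common regions per Mb of distal sequence by distance to the nearest protein-coding TSS, in kb. They fall from 11.2 per Mb at 1 to 5 kb to 0.293 beyond 500 kb. The red points on the right give the share of regions upstream of that TSS with 95% intervals and the open squares the share of the distal sequence. Both are above 80% next to genes, and the share of regions is lowest at 50 to 100 kb, with 53.7%.

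E-boxes were frequent at the centres of distal regions, and 4 of the 10 classes of the CANNTG sequence stood out, namely CAGCTG with a GC centre, CAGATG with GA, CACCTG with CC and CATATG with TA. The classes are counted on both strands, so that each name also stands for its reverse complement. In the central 200 bp, 5733 regions (84.3%; 83.4 to 85.2%) held at least 1 E-box, compared with 66.2% of windows of the same size 3 kb to either side that touched no peak. CAGCTG was found in 31.2% of the distal windows and in 8.84% of the flanking windows, a 3.52-fold excess. CATATG was found in 14.4% of the distal windows against 5.06% of the flanks (2.85-fold), CAGATG in 28.1% against 15.5% (1.81-fold) and CACCTG in 21.4% against 13.7% (1.57-fold). CACGTG, the E-box of the Myc and USF proteins, was present in 3.71% of windows and 2.57% of flanks. The 5 other classes were at 0.869- to 1.06-fold of their flanks. The flanks are nearby sequence of lower GC content (44.7% against 47.5% in the distal windows) and are given as a description without a test.

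The central windows of distal regions held most E-box classes more often than those of common regions at TSSs. CAGCTG was present in 20.8% of the TSS windows, 10.3 percentage points fewer than in distal ones (Fisher's exact test, adjusted p = 1.57e-45), with the same direction on 20 of 20 chromosomes. CATATG was present in 3.77% of TSS windows, 10.7 points fewer (adjusted p = 1.89e-118; 20 of 20 chromosomes), and CAGATG in 13.4%, 14.7 points fewer (adjusted p = 1.78e-107; 20 of 20 chromosomes). The difference was smaller for CACCTG, which occurred in 18.2% of TSS windows (3.18 points fewer, adjusted p = 3.5e-06, 17 of 20 chromosomes). CACGTG was the exception among the E-boxes, as it was present in 5.17% of TSS windows, 1.47 points more than in distal ones (adjusted p = 4.09e-05; 19 of 20 chromosomes). The TSS windows had a mean GC content of 59.7%. The TSS regions were also wider, with a median of 1303 bp against 886 bp. Among the widest distal regions, with a median of 1592 bp, CAGCTG was present in 19.9% of windows. The parts of GC content and width in these differences, and in those of other motifs from TSSs, were not tested. These two-sided tests were adjusted over 44 comparisons, namely 22 features against both other classes. Neighbouring regions are not independent, so that the p-values are too small, and the count of chromosomes, taken over the autosomes and X, is the more cautious measure.

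Compared with the common regions in gene bodies, the distal regions were similar, with small differences. CATATG was found in 16.8% of gene body windows, a difference of -2.41 points, distal minus gene body (adjusted p = 0.000107; the same direction on 17 of 20 chromosomes). CAGCTG was found in 33.0%, a difference of -1.82 points (adjusted p = 0.0309; 12 of 20 chromosomes). Both of these calls were fragile, as the CAGCTG difference was -0.998 and -1.67 points with windows of 100 and 400 bp and no longer passed the threshold, and the CATATG difference was -0.637 points and did not pass with the peaks of the second experiment alone. CACATG, which was not enriched over the flanks, also differed, with 15.4% of distal and 17.4% of gene body windows (-2.01 points, adjusted p = 0.00173; 17 of 20 chromosomes), as did the share of windows with any E-box, with 84.3% against 85.9% (-1.63 points, adjusted p = 0.00928; 13 of 20 chromosomes). The CACATG and any E-box differences were not recomputed under the alternatives. CAGATG (28.1% against 28.0%, adjusted p = 0.957) and CACCTG (21.4% against 21.5%, adjusted p = 0.926) did not pass the test.

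**Figure D2:**
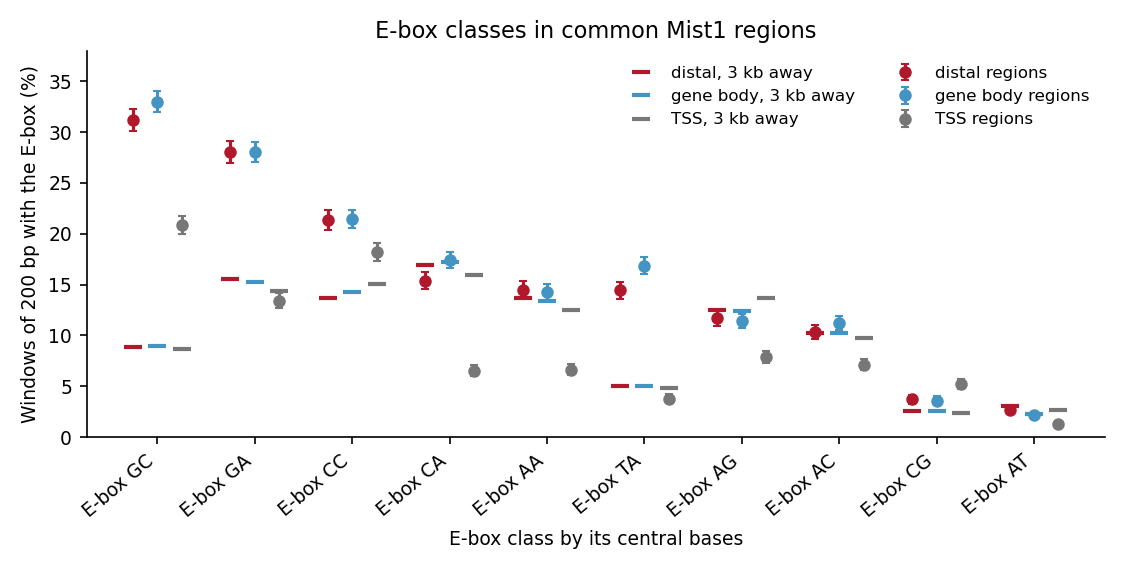
Points give the share of central 200 bp windows with each E-box class, named by its central bases (GC stands for CAGCTG), with exact 95% intervals, for distal, gene body and TSS regions, and dashes give the share in windows 3 kb away. The GC class reaches 31.2% in distal regions against 8.84% in their flanks, and distal and gene body regions lie close together while TSS regions are lower for all classes but CG.

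The 4 prominent E-boxes were centred on the regions. In 20 bp steps, CAGCTG averaged 43.7 sites per 1000 distal regions within 60 bp of the centre and 9.61 beyond 700 bp, a ratio of 4.55. With the centre of the bases covered by both experiments instead of the merged region, the ratio was 5.42. The corresponding ratios around the merged centre were 3.09 for CATATG, 2.17 for CAGATG, 1.66 for CACCTG and 0.967 for CAAGTG, which thus showed no central accumulation. E-boxes also occurred together. Of the distal windows, 1067 (15.7%) held none, 2106 (30.97%) held 1, and 245 (3.60%) held 5 or more, in contrast to 4124 (33.8%), 4250 (34.8%) and 122 of the flanking windows. None of the 4 prominent E-boxes was present in 2050 windows (30.1%), while 1503 (22.1%) held at least 2 of these classes, and CAGCTG and CATATG were found together in 154.

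**Figure D3:**
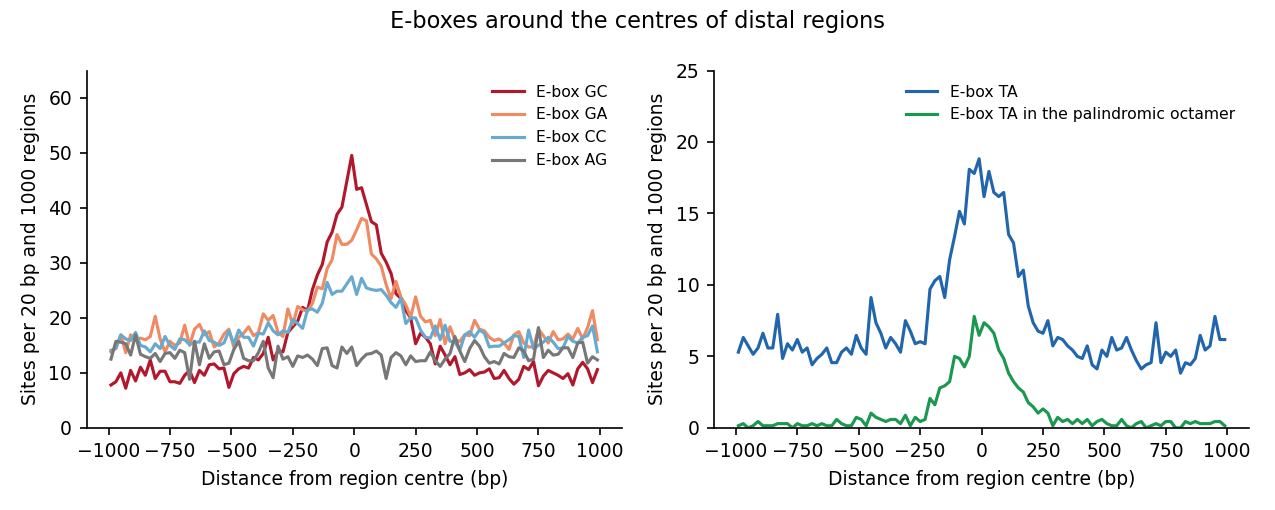
Lines give the number of E-box sites per 20 bp and 1000 distal regions by distance from the centre of the merged region, in bp. The GC, GA and CC classes (left) and the TA class (right) rise at the centre, where GC reaches 49.6 sites, whereas the AG class stays level. The scales of the panels differ.

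The bases next to the E-boxes differed from those in the flanks. After CATATG, read outward on either side, G followed in 53.4% of 1074 sites and in 16.8% of 642 flanking sites, and the next base was T in 48.6% against 18.8%. After CAGCTG, A was rare, with 9.13% of 2651 sites against 24.1% of 1146 flanking sites, and T was frequent, with 35.5% against 24.6%. These preferences gave rise to the sequence words with the largest excess. Among 9513 words of 8 bases, the palindrome CCATATGG, which holds CATATG, ranked first. It was present in 393 distal windows (5.78%; 5.24 to 6.36%) and in 0.188% of the flanking windows, a 30.7-fold excess, and was followed by ACCATATG (15.1-fold), ACAGCTGT (8.68-fold) and AACAGCTG (8.504-fold). The gene body windows held CCATATGG in 6.75% and the TSS windows in 1.17%. Words of 8 bases were ranked on these same windows, so that no test is given.

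Some of the CCATATGG sites lay in copies of a common sequence. The most frequent base at each of the 40 positions on either side of the octamer, taken over the 108 of 423 sites in distal windows that matched their majority at 70% identity or more without gaps, gave the following 88 bases, with the octamer in capitals.
Majority sequence around CCATATGG: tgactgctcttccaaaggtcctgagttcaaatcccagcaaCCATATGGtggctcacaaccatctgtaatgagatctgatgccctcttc

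Of the distal windows with the octamer, 102 (25.95%) held it inside this sequence and 291 outside. In the rest of the genome, 5.92% of the CCATATGG sites were inside the sequence. The window near *Myc* shown above carries a copy at the identity of 70%. The octamer of the window near *Prdm1* did not reach this identity, although the printed bases next to it resemble the reverse complement of the sequence. Sites counted as outside can therefore include diverged or partial copies. Identical 30 bp stretches around the octamer were shared between different distal regions at 52 of 365 sites (14.2%), in sets of up to 20, compared with 36 of 2446 sites (1.47%) for CAGCTG. Reads from such copies cannot always be assigned to a single place, and how the authors treated them is not given in the sources used here.

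Related octamers that differ from CCATATGG by a single central base were counted inside and outside the sequence. CCATATGG was chosen as the top word of the distal windows and the sequence was built from its sites there, a choice that favours high rates of CCATATGG, so that these rates are a description. Among the octamers counted, CCACATGG, which differs from CCATATGG in this base, was the most frequent form of the sequence in the genome. It occurred at 63946 places inside the sequence, of which 219 (3.42 per 1000) were in distal common regions. CCATATGG occurred at 2084 places inside it, of which 159 (76.3 per 1000) were in distal common regions, and 108 of these sites were those that built the sequence. Its rate was 22.3 times that of CCACATGG, but 6.26 times that of CCAAATGG (12.2 per 1000, 4 of 328 places) and 2.47 times that of CCAGATGG (30.9 per 1000, 6 of 194 places), for which the counts are small. Outside the sequence, the rates were 19.7 per 1000 for CCATATGG (616 of 31233 places) and 4.09 per 1000 for CCACATGG (587 of 143383), a ratio of 4.82, and the ratios to CCAAATGG and CCAGATGG were 8.22 and 3.34. In the common regions of gene bodies and TSSs, which had no part in the choice of the octamer or the sequence, 164 per 1000 CCATATGG places (341) and 7.74 per 1000 CCACATGG places (495) inside the sequence were found. With an identity of 60 or 80%, settings chosen after the data had been seen, the ratio to CCACATGG inside the sequence was 17.8 and 23.8.

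**Figure D4:**
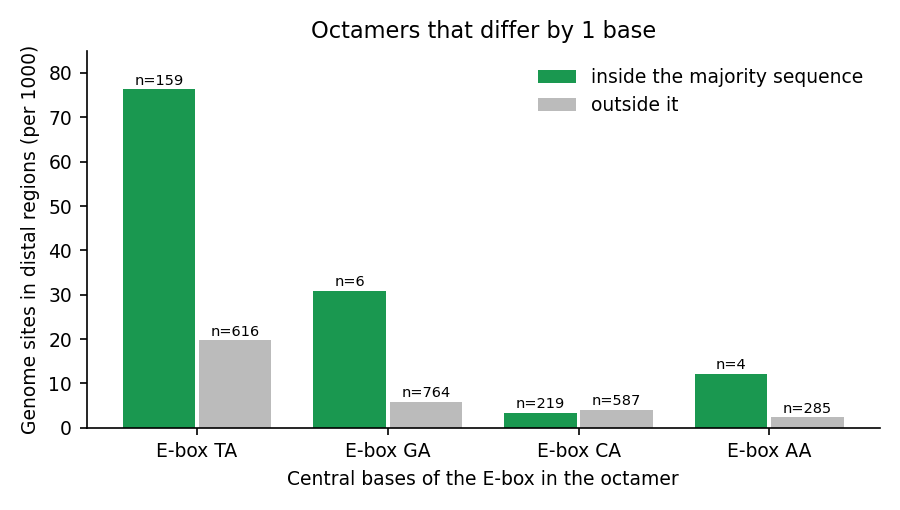
Bars give how many of 1000 genomic sites of an octamer lay in distal common regions, for 4 octamers that differ in the central bases of their E-box (TA stands for CCATATGG), inside and outside the majority sequence, with the number of sites in distal regions above each bar. The TA octamer inside the sequence reaches 76.3 per 1000, compared with 30.9 for the GA, 12.2 for the AA and 3.42 for the CA octamer.

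Sites of several other transcription factors of the B lineage were also more frequent in distal regions than at TSSs. The octamer ATGCAAAT was present in 3.43% of distal windows, 1.14% of their flanks (3.01-fold) and 0.875% of TSS windows (adjusted p = 1.26e-27; 19 of 20 chromosomes). The AP-1 site TGANTCA, bound by Fos, Jun and Batf, was found in 8.04% of distal, 5.82% of flanking and 3.30% of TSS windows (adjusted p = 6.97e-36; 20 of 20 chromosomes). The ETS site AGGAAGT was present in 8.54%, 4.91% and 4.72%, respectively (adjusted p = 2.73e-20; 20 of 20 chromosomes), and the IRF pair GAAANNGAA, which Blimp1 also recognizes, in 9.56%, 6.79% and 5.24% (adjusted p = 3.2e-23; 19 of 20 chromosomes). The Runx site TGTGGTT (6.50% against 2.95% at TSSs, adjusted p = 5.94e-24) and the ETS-IRF composite GGAANNGAA (8.34% against 4.87%, adjusted p = 6.7e-17) went the same way.

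Other sites had different distributions. The Ebf1 site TCCCNNGGG (3.72% against 5.83%, adjusted p = 6.52e-09) and the element TGACGTGG of the unfolded protein response (UPR), bound by Xbp1 and ATF6 (0.235% against 0.609%, adjusted p = 0.00119), were less frequent in distal than in TSS windows. The NF-kB site GGGANTTCC (1.19%) and the CTCF core AGGTGGC (5.78%), which can overlap CACCTG, did not pass the test against TSSs (adjusted p = 0.316 and 0.754). None of these 10 motifs passed it against gene bodies, where the adjusted p-values lay between 0.0851 for AP-1 and 0.912. Windows with at least 10 CpG dinucleotides made up 4.79% of the distal regions, 2.23% of the gene body regions (adjusted p = 1.34e-17; 19 of 20 chromosomes) and 58.5% of the TSS regions. The CpG-rich windows were more frequent among the distal regions within 1 kb of a non-coding TSS (71 of 296, 24.0%) than among the rest (3.92%).

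The E-box content differed within the distal regions. Among the narrowest regions, a group of 1709 with a median width of 548 bp, 43.1% (40.8 to 45.5%) held CAGCTG, 20.5% (18.6 to 22.5%) CATATG and 93.3% any E-box in the central 200 bp. Among the 1697 widest regions, with a median of 1592 bp, these shares were 19.9% (18.0 to 21.8%), 6.89% (5.73 to 8.21%) and 75.5%. CCATATGG was present in 10.1% of the narrowest and 1.41% of the widest regions, and CpG-rich windows made up 2.87% and 7.25%. The peak lists give no summit, so that the centre of a region need not be its highest point. CATATG was also more frequent in regions without another distal region within 10 kb (17.4%; 16.2 to 18.7%) than in clusters of at least 3 (9.25%; 7.83 to 10.8%), while CACCTG was found in 20.9% and 22.9%. The single regions were narrower, with a median width of 825 bp against 1027 bp in these clusters, and the part of width was not tested. The E-box content varied less with the distance to the nearest TSS, as CAGCTG ranged from 30.1 to 33.4% over 4 classes of distance. CATATG was at 18.4% beyond 100 kb and at 13.2 to 14.4% closer to genes. Distal peaks found in a single experiment held CATATG in 29.0 and 30.6% and CCATATGG in 13.6 and 15.7%, more than the common distal peaks of each experiment (14.8 and 14.4%, and 6.14 and 5.64%), whereas CAGCTG was similar (30.3 and 31.3% against 33.0 and 31.7%).

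The immunoglobulin loci, whose genes are transcribed at very high levels in PBs, differed in their number of distal regions. Their outermost segments were taken among those not classed as protein-coding, of which the lambda locus (Igl) had 3. Between these segments, the kappa locus (Igk) held 34 regions over 3.17 Mb (10.7 per Mb), Igl 11 over 0.176 Mb (62.6 per Mb) and the heavy chain locus (Igh) 7 over 2.73 Mb (2.56 per Mb). The distal sequence of chromosomes 6, 16 and 12, on which they lie, held 4.48, 4.19 and 4.12 regions per Mb. The loci themselves and 100 kb on either side held 40 regions at Igk, 17 at Igh and 17 at Igl. Of the T cell receptor loci, the alpha and delta locus had 10 regions, the gamma locus 1 and the beta locus 0. At Igk, 21 of the regions overlapped a gene segment, while 1 did so at Igh and 2 at Igl. The Igk regions were narrow, with widths from 295 to 2022 bp and a median of 643.5 bp, compared with medians of 1072 bp at Igh and 1105 bp at Igl.

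The octamer ATGCAAAT was more frequent in the Igk windows than in distal windows as a whole, although most Igk windows lacked it. It was present in the central window of 12 of the 40 Igk regions (30%), such as the Igkv2-137 region shown above, of 1 of the 17 Igh regions and of 0 of the 17 Igl regions, in contrast to 233 (3.43%) of all 6800 distal regions. Over the whole width of the regions, it was found in 19 Igk (47.5%), 4 Igh (23.5%) and 7 Igl (41.2%) regions and in 808 (11.9%) of all distal regions. An E-box was present in the central windows of 61 of the 74 regions at the 3 loci (82.4%), compared with 84.3% of all distal regions. The variable segments are related sequences, so that these regions are not independent of each other.

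Groups of distal regions lay next to the constant genes. At Igh, 10 regions at chr12:114454081-114494409 formed a cluster that spans 40.3 kb between *Tmem121* and *Gm900*, beyond the constant genes, on the side where the enhancers of the 3′ regulatory region are located. A further Igh region at chr12:114663705-114666435 was 2731 bp wide. At Igk, 1 region lay between the last variable segment and *Igkj1*, and 5 regions followed *Igkc* at distances of 8226 to 37717 bp, on the side of the known 3′ kappa enhancers. The RNA-seq values do not cover immunoglobulin and T cell receptor genes, which the authors left out of the calculation, so that expression could not be set beside these regions.

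The distal regions often lay close to each other. Joining regions with gaps of at most 10 kb gave 3849 single regions, 724 pairs and 388 clusters of at least 3, which held 1503 regions (22.1%). The largest cluster comprised 11 regions over 46.5 kb at chr17:29605221-29651767, between *Fgd2* and *Gm17657*, and the nearest genes of its members were *Gm17657* and *Pim1*, which encodes a survival kinase. Clusters of 10 regions were found next to *Cxcr4* (chr1:130495512-130521414, starting 6.64 kb from its TSS), which encodes the receptor that guides PCs to the bone marrow, and between *Klf13* and *Trpm1* (chr7:71128620-71157565), in addition to the Igh cluster. Of the 4 clusters of 9 regions, 1 lay 160.0 kb upstream of *Prdm1* (chr10:44408296-44452161), and the nearest genes of the others were *Snx5*, *Bcar3* and *Rps6ka1*. By nearest TSS, most regions were assigned to *Myc* (29, from 16.2 to 836 kb away), *Cxcr4* (23, up to 240 kb), *Prdm1* (21, up to 202 kb) and *Gm355* (18).

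The genes of the PC regulators differed in their distal regions. The 5 regions nearest to *Prdm1* were 8.74 kb upstream, 23.4 and 64.6 kb downstream and 70.2 and 73.0 kb upstream of a TSS. Each of them held an E-box, and CATATG was present in 2. Near *Irf4*, 4 regions lay 11.3, 20.5, 23.5 and 26.7 kb upstream and 1 lay 29.2 kb downstream. The widest of these, of 2550 bp, had no E-box in its central 200 bp. Near *Xbp1*, 3 regions lay 7.68, 10.6 and 34.5 kb upstream, and the next was 170 kb away. The gene of Mist1 itself, *Bhlha15*, had no distal region within 50 kb, and its nearest one was 380 kb upstream of the TSS.

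The extremes of width and E-box number were different regions. The 5 widest distal regions measured 2956 to 2991 bp and were nearest to *AB041803*, *Herpud1*, *Iglc2*, *Psd2* and *Chd2*. Their central windows held between 0 and 3 E-boxes. The highest number of E-boxes, 24, was found in a region of 687 bp at chr6:142699245-142699931 near *Cmas*, with 16 CACATG and 8 CATATG. The region near *Tulp1* (chr17:28525029-28526353) held 16 CAGCTG and 1 CACCTG, a region near *Aff3* had 12 CACATG and 5 CATATG, and regions near *Fgfr1op* and *Spata13* had 16 and 15 E-boxes. The printed *Tulp1* window is made up of short repeated units.

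To relate the distal regions to expression, genes with a distal region within 50 kb of a TSS were examined in the RNA-seq data. *Bhlha15* was measured first, as it is the targeted gene. It was present at 258 and 242 TPM in control PCs and at 14.4 and 16.6 TPM in Mist1-deficient PCs (log2 change of -3.99, SE 0.096, limma, adjusted p = 0.000278). In PBs, the values were 176 and 159 TPM in Xbp1 fl/fl and at 0.21 and 0.551 TPM in Bhlha15 CreER/CreER libraries. The libraries of both genotypes did not overlap in either cell type. The PC marker genes *Sdc1*, *Prdm1*, *Xbp1*, *Irf4* and *Tnfrsf17* were detected in all libraries. In the bulk libraries, fewer cells of a type and less RNA per cell cannot be told apart.

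Genes near distal regions were more often expressed than other genes. In control PCs, at least 1 TPM in both libraries was reached by 6562 of 13997 genes without a distal region within 50 kb (46.9%), by 67.4% of the 3850 genes with 1 region, by 74.6% of the 1252 genes with 2 and by 80.5% of the 974 genes with 3 or more. In the Xbp1 fl/fl PBs, these shares were 48.5%, 65.3%, 72.0% and 76.4%. Among the genes that reached this level in PCs, the median was 26.9 TPM without a region and 49.1 TPM with 3 or more. Genes in gene-dense parts of the genome share regions, and no test was made. Gene names of the annotation were matched to the expression tables for 6076 of the 6514 genes with a region within 50 kb.

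Genes near distal regions were called in Mist1-deficient PCs at about the same rate as all genes. Genes were called at a fold change above 3, an adjusted p-value under 0.05 and a mean above 5 TPM in the higher group, and the backgrounds over all 12028 genes tested in PCs were 0.723% called lower and 0.125% called higher. Of the 4403 tested genes with a distal region within 50 kb, 31 (0.704%) were lower and 2 (0.0454%) were higher in Mist1-deficient PCs. Without a distal region, 49 of 6738 genes (0.727%) were lower and 10 (0.148%) higher. With an adjusted p-value under 0.05 alone, 18.9% were lower and 13.3% higher near a distal region, compared with 16.2% and 13.3% of all genes, and the median log2 changes were -0.01 and 0.01. Among the 799 genes with 3 or more distal regions, 9 (1.13%) were called lower and 1 higher. Common regions at a TSS or in the gene body were counted for each gene only if under 3000 bp wide, and wider ones were left out. Only 3 of 1109 genes with a distal region but no such region were lower (0.271%), as opposed to 28 of 3294 genes (0.850%) that also had one. This difference was not tested. Of the 6800 distal regions, 4179 (61.5%) lay within 50 kb of a TSS of a tested gene, and 64 were within 50 kb of a gene called lower. B cell markers (*Pax5*, *Ms4a1* and *Fcer2a*) summed to 391 to 435 TPM in Mist1-deficient and 436 to 595 TPM in control PCs, and 4 neutrophil markers to 512 to 763 and 415 to 884 TPM. The part of these cells in the changes was not tested.

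Among the genes with the largest decreases was *Rab3d*, which encodes a GTPase of secretory vesicles. *Rab3d* was at 116 and 79.7 TPM in control PCs and at 4.57 and 6.14 TPM in Mist1-deficient PCs (log2 change of -4.14, SE 0.23, limma, adjusted p = 0.00117), and its distal region, shown above, lies 46.6 kb downstream of its TSS with 3 E-boxes in its window, of which 1 is CAGCTG, and is closer to *Dock6*. *Asap3*, a GTPase-activating protein of the Arf family, fell from 6.09 and 4.47 TPM to 0.0989 and 0.342 TPM (log2 change of -4.15, SE 0.49, adjusted p = 0.00378). *Asap3* has 3 distal regions within 50 kb, and the nearest, 3.45 kb upstream, holds a single E-box, CAGCTG. For both genes, each Mist1-deficient library was below both control libraries, an order that the choice of called genes favours.

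*Mturn* fell from 16.8 and 13.3 TPM to 0.861 and 1.72 TPM (log2 change of -3.49, SE 0.33, adjusted p = 0.0023), with 3 distal regions of which the nearest is 10.6 kb upstream and holds CATATG and CAACTG. *Gm996* fell from 33.7 and 26.5 TPM to 1.55 and 1.79 TPM (log2 change of -4.07, SE 0.18, adjusted p = 0.000748), and the window of its region, 29.9 kb downstream, holds no E-box. *Tubb2a*, a tubulin gene with 3 distal regions, fell from 64.7 and 56.5 TPM to 8.88 and 7.06 TPM (log2 change of -2.90, SE 0.14, adjusted p = 0.000987). The nearest region of *Tubb2a* lies 24.4 kb upstream and holds CAGCTG and CAGATG. The other genes among the 10 with the largest decreases were *Arpp21*, *Kif19a*, *Vat1*, *Nacc2* and *Asah2*, with log2 changes between -3.19 and -2.13. For all 10 genes, the libraries of both genotypes did not overlap, a separation that the choice of called genes favours. Of these genes, 9, all but *Asah2*, also had a common region under 3000 bp wide at a TSS or in the gene body.

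The genes called higher near a distal region were *Cldn7*, which encodes a tight junction claudin, and *Aire*, a transcriptional regulator known from the thymus. *Cldn7* was at 2.83 and 2.26 TPM in control PCs and at 15.2 and 10.7 TPM in Mist1-deficient PCs (log2 change of 2.31, SE 0.22, adjusted p = 0.00235), and its distal region lies 33.4 kb upstream and holds CAGATG. *Aire* was at 1.74 and 2.57 TPM in control and at 6.45 and 7.57 TPM in Mist1-deficient PCs (log2 change of 1.69, SE 0.22, adjusted p = 0.00486). Both had no common region under 3000 bp wide at a TSS or in the gene body. *Aire* was no longer called with a pseudocount of 1 (log2 change of 1.37) or after omission of the first control library (1.46) or the second Mist1-deficient library (1.58).

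**Figure D5:**
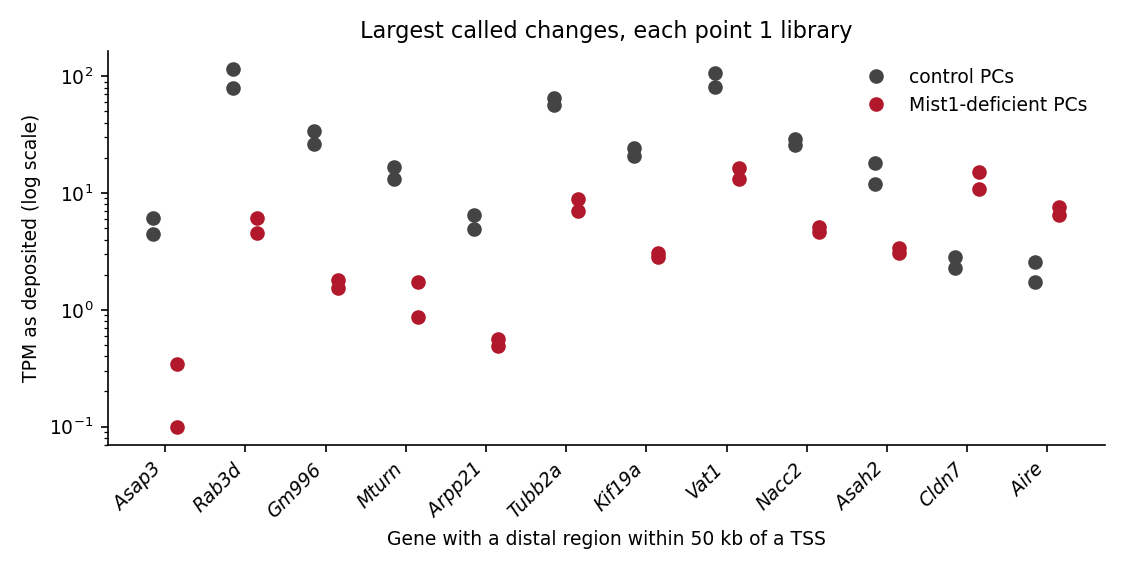
Each point is the TPM value of 1 library on a log scale, for the 10 genes with the largest called decreases and the 2 called increases in Mist1-deficient PCs among genes with a distal region within 50 kb of a TSS. Control and Mist1-deficient libraries are separate for every gene, which the choice of called genes favours. *Rab3d* is at 79.7 and 116 TPM in the controls against 4.57 and 6.14 TPM.

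In Bhlha15 CreER/CreER PBs, *Rab3d* was the gene near a distal region that was called. The control libraries had 26.2 and 25.4 TPM and the Mist1-deficient libraries 3.60 and 3.11 TPM (log2 change of -2.87, SE 0.14, limma, adjusted p = 0.000128). The libraries did not overlap, a separation that the call favours. Over all 12125 genes tested, 0.033% were called lower and 0.0165% higher, and of the 4313 genes with a distal region, 1 was called lower and 0 higher. With an adjusted p-value under 0.05 alone, 11 (0.255%) were lower and 1 (0.0232%) was higher, compared with 0.272% and 0.0495% of all genes. At an unadjusted p under 0.05, 284 of these 4313 genes were lower and 202 higher in limma. The share of all tested genes at an unadjusted p was not determined, here or for the groups of genes below, so that such counts have no background. The absence of higher genes depended on a library, as 4 genes were called higher without the first Bhlha15 CreER/CreER library. *Cldn7* did not pass the filter on low values in PBs, and the remaining genes named above for PCs did not pass the adjusted p-value there. *Nacc2*, *Kif19a*, *Arpp21*, *Asah2*, *Gm996* and *Vat1* had log2 differences between -1.08 and -0.34, and each of their mutant libraries was below both control libraries (adjusted p between 0.178 and 0.583). With 2 libraries per group, this order can arise without any change, and its share over all genes was not determined. *Nacc2*, with the largest difference, was at 2.90 and 3.47 TPM in the control and at 1.81 and 1.10 TPM in the mutant libraries. For *Asap3*, *Tubb2a*, *Mturn* and *Aire*, the libraries overlapped. *Asap3* was at 0.627 and 0.967 TPM in the control and at 1.18 and 0.539 TPM in the mutant libraries. *Tubb2a* was at 21.1 and 22.0 TPM and at 21.5 and 17.7 TPM in the respective PBs. Transcripts of 3 fibroblast collagens (*Col1a1*, *Col1a2* and *Col3a1*) summed to 918 to 1099 TPM in control and 723 to 1233 TPM in Bhlha15 CreER/CreER PBs, and their part in the result was not tested. The iGB culture contains feeder cells.

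Most transcription factor genes of the B lineage had distal regions but small changes. Of 30 such genes tested in PCs, 24 had a distal region within 50 kb, of which 0 were called at the 3-fold threshold in limma. At an adjusted p-value under 0.05 alone, 6 were lower and 3 higher, against 16.2% and 13.3% of all genes tested, and 6 and 5 at an unadjusted p under 0.05. Their median log2 change was -0.06, compared with 0.01 for all genes. *Myc*, with 2 regions within 50 kb, fell from 64.5 and 65.4 TPM to 36.6 and 38.9 TPM (log2 change of -0.76, SE 0.07, adjusted p = 0.00195), and *Pou2f2*, which encodes Oct2, fell by 0.98 on the log2 scale (adjusted p = 0.00184). *Id2*, *Runx3*, *Tcf12* and *Zbtb20* were also lower, by 0.39 to 0.64 on that scale. *Irf4*, with 6 regions, rose from 688 and 739 TPM to 947 and 886 TPM (log2 change of 0.38, SE 0.06, adjusted p = 0.00952), and *Pou2af1*, a coactivator of Oct2 with 10 regions within 50 kb, rose by 0.30 on the log2 scale (adjusted p = 0.0241), as did *Tcf3* (0.30, adjusted p = 0.0136).

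The genes of Blimp1 and Xbp1 did not pass the test. *Prdm1*, with 2 regions within 50 kb, was at 175 and 198 TPM in control PCs and at 237 and 203 TPM in Mist1-deficient PCs (log2 change of 0.25, SE 0.09, limma, adjusted p = 0.0793). *Xbp1*, with 3 regions, was at 5099 and 4458 TPM and at 5296 and 5086 TPM (log2 change of 0.14, adjusted p = 0.38). For *Prdm1*, both mutant libraries were above the control libraries, an order whose share over all genes was not determined, whereas those of *Xbp1* overlapped. In PBs, 23 genes of this group had a region, of which 0 passed the adjusted p-value in limma and 1 was lower at an unadjusted p under 0.05.

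Genes of surface receptors and survival and of the UPR and secretion gave a similar picture. Of the 20 receptor and survival genes, 14 had a distal region within 50 kb, and 4 were lower and 2 higher at an adjusted p-value under 0.05 alone in PCs, against 16.2% and 13.3% of all genes, with a median log2 change of -0.10. At the 3-fold threshold, 0 were called in limma, and 5 were lower and 2 higher at an unadjusted p under 0.05. *Cd93*, a surface receptor of PCs with 6 regions, fell from 139 and 129 TPM to 58.4 and 52.3 TPM (log2 change of -1.26, SE 0.09, limma, adjusted p = 0.00133), and *Cd28*, a costimulatory receptor with 1 region, rose from 115 and 126 TPM to 215 and 195 TPM (log2 change of 0.79, SE 0.07, adjusted p = 0.00195). *Cxcr4*, with 14 regions within 50 kb the gene of these lists with most, was at 302 and 258 TPM and at 243 and 211 TPM (log2 change of -0.28, SE 0.12, adjusted p = 0.121). Of the 21 UPR and secretory genes, 14 had a region, of which *Rab3d* and *Creb3l1* were called lower, against 0.723% of all genes, and 4 were lower and 1 higher at an adjusted p-value under 0.05 alone. Their median log2 change was -0.07. *Creb3l1*, which encodes an ER-bound transcription factor, fell from 8.19 and 6.36 TPM to 1.62 and 2.18 TPM (log2 change of -1.87, SE 0.24, adjusted p = 0.0045), and a distal region 20777 bp upstream of it contains CCATATGG. *Herpud1*, an ERAD gene with 6 regions, fell by 0.44 on the log2 scale (adjusted p = 0.0185), *Eif2ak3* by 0.35 (adjusted p = 0.0368), and *Ern1*, a sensor of ER stress, rose by 0.28 (adjusted p = 0.0482). The distal region of *Rab26*, a gene that fell by 2.95 on the log2 scale (adjusted p = 0.0013), is more than 50 kb away, at 71450 bp. In PBs, 0 receptor genes and, of the UPR and secretory genes, only *Rab3d* passed the adjusted p-value in limma, and 5 and 2 genes passed at an unadjusted p under 0.05.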

How the data were processed

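Mist1 peaks were called by the authors in each Bio-ChIP-seq experiment separately, with MACS against a mature B cell input after alignment to mm9 with Bowtie 1.0.0, and the deposited lists hold positions only. TPM were calculated by the authors with cutadapt, STAR 2.4.2 and featureCounts 1.5, without immunoglobulin and T cell receptor genes, and the deposited columns sum to 1000000 per library, so that the depth is unknown (versions per the submitters' processing notes). Libraries were labelled as separate samples without animals or cultures named, so that the p-values measure only the spread between these samples, which may be technical.

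Regions were merged and classified with Python 3.11.15, pandas 2.3.3 and numpy 2.4.6 and compared by two-sided Fisher's exact tests in scipy 1.17.1, with Benjamini-Hochberg adjustment (statsmodels 0.14.6). A planned comparison of repeat-masked bases was not made, since the sequence used here is not masked. TPM were scaled by the median of ratios, and genes with at least 1 TPM in 2 libraries were fitted as log2(TPM + 0.1) with limma 3.58.1 in R 4.3.3, in 1 model of 4 PC and 1 of 6 PB libraries, so that fold changes of low genes are understated. Both procedures were tested on simulated data. A further B cell marker is not reported here. The members and the lists were chosen with earlier results of these data known. The regions named are the 5 nearest to *Prdm1*, *Irf4* and *Xbp1*, the 5 widest, the 5 largest clusters with 3 more that tied for the last place, the 5 with most E-boxes and those in the immunoglobulin loci. The genes named are those of 3 lists and the 10 (PCs) or 5 (PBs) with the largest called changes in each direction among genes with a distal region within 50 kb. The regions near *Myc*, *Bhlha15*, *Rab3d*, *Asap3* and Igkv2-137, the words of 8 bases and the majority sequence were chosen after their values had been seen.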

Additional observations from a re-analysis of the deposited data

How the results depend on the processing

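The differences of the 4 prominent E-boxes from TSSs and the decreases of the 10 named genes kept their direction and their side of the threshold under each alternative run, except that *Asap3* and *Arpp21* did not pass the filter on low values when a control library was left out. *Aire* was no longer called in 3 of 10 settings. Against gene bodies, CAGATG and CACCTG, which had not passed, changed sign. CAGATG (0.043 points more in distal windows) turned to -0.287 with an overlap of 50%, -0.0115 with a TSS distance of 2500 bp, -0.116 with genes of every type, -0.859 with windows of 400 bp and -0.575 with the centre covered by both experiments, and was between -0.00887 and 0.226 with 1 experiment. CACCTG (-0.087 points) turned to 0.113 with genes of every type, 1.18 with windows of 400 bp and 0.266 with the centre covered by both. CAGCTG no longer passed with windows of 100 bp (-0.998) or 400 bp (-1.67), and CATATG was between -1.34 and -0.637 with 1 experiment. The median TSS distance and the share of CCATATGG were examined under these alternatives by a choice made after seeing the data. The distance was 25432 bp with a TSS distance of 2500 bp, 16712 bp with genes of every type, and 23624 to 23724 bp with 1 experiment. With 1 experiment alone, 8734 to 9169 distal regions were found and the share of CCATATGG was 7.51 to 7.95%, while windows of 100 and 400 bp gave 3.21 and 8.54% and the centre covered by both 6.65%.

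Of the tested genes with a distal region, 6 of 1318 (0.455%) were called lower in Mist1-deficient PCs with a distance of 10 kb. With 100 kb, 44 of 6392 (0.688%) were lower, and by the nearest gene 20 of 2532 (0.79%), against 0.723% of all genes. The number called higher was 1 with a pseudocount of 1 and 0 with 10 kb. It was 6 (0.0939%) with 100 kb and 1 (0.0395%) by the nearest gene, against 0.125% of all genes. In PBs, 0 were lower with 10 kb, and 0 to 4 were higher without a library of the contrast. A group left with 1 library was assumed to vary like the others. No paired analysis was possible because the labels give no replicate numbers that link libraries of different groups. Fits rest on 2 libraries per group, and peak heights and depths are unknown, so that weak peaks cannot be told from strong ones.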

Other observations

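The Y chromosome carried 15 distal regions, which were all of its common regions under the width limit. At 7.26 per Mb of distal sequence, their density was close to that of chromosome 11 (7.42 per Mb), whereas the X chromosome had the lowest density of all chromosomes (126 regions, 1.08 per Mb). Of the Y regions, 14 had *Gm3395* as the nearest gene, at distances between 227154 and 346768 bp. The densities of the autosomes ranged from 3.29 per Mb on chromosome 14 to 7.42 per Mb on chromosome 11.

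The octamer CCATATGG also occurred in the central windows of distal regions whose nearest gene belongs to the lists of B lineage and PC genes. Such a window lay 1917 bp upstream of *Cd38*, which encodes a surface enzyme of PCs, 8744 bp upstream of *Prdm1*, 16151 bp upstream of *Myc* and 20777 bp upstream of *Creb3l1*. Further windows with the octamer were 33748, 154450 and 262193 bp downstream of *Myc*, 207202 bp downstream of *Ebf1* and 365628 bp upstream of *Id2*. Over all 6800 distal regions, 393 windows (5.78%) held the octamer. *Myc* and *Prdm1* were the nearest genes of 29 and 21 distal regions, with or without it. The share among all regions nearest to listed genes was not determined.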
